A study of Mus musculus with 19 samples.

Results

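The immediate early stress response was followed in mouse liver through 10 genes: Fos, Fosb, Jun, Junb, Egr1, Ier2, Atf3, Myc, Zfp36 and Dusp1. They were taken by symbol from the deposited gene table, 10 of its 55836 genes, and all were found in it. Levels are CPM (counts divided by the library size and multiplied up to a common scale) with TMM, a normalization that corrects for differences in library composition. In all, 9 of the 10 passed the filter on low counts and were tested among 13597 genes. Fosb did not pass, and is given by its counts.

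The livers came from wild-type male C57BL/6 mice, with 19 bulk poly(A) RNA-seq libraries, each taken as 1 mouse and all labelled as batch B1. Mice were 8 weeks old at the start and received a diet and a daily gavage for 8 weeks. The 4 groups were control diet (CD, 10% of energy from fat) with vehicle (CD + Veh, n = 4), control diet with polyethylene microplastic (CD + PE, n = 5), a diet that induces metabolic dysfunction-associated steatohepatitis (MD) with vehicle (MD + Veh, n = 5), and MD with polyethylene (MD + PE, n = 5). MD supplies 40% of energy as fat and 20% as fructose, with 2% cholesterol. Mice of the PE groups were given 2 mg daily, as particles of 10 to 150 µm suspended in water with 0.1% Tween 20, and vehicle was that water without particles. All 4 groups were therefore gavaged every day, and no group was left unhandled. The tissue was snap-frozen whole liver, so a lower level of a gene can stand for less RNA per cell or for fewer cells that carry it, and these cannot be told apart.

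Immediate early genes are transcribed within minutes of a stimulus such as a growth factor, a cytokine or cell stress, from preformed transcription factors and without new protein synthesis. Their mRNAs are short-lived, so a level in frozen tissue reflects the time around tissue collection rather than a stable state. In the liver they are known for a burst after partial hepatectomy, and also for rising when tissue is cut, warmed or dissociated. Fos, Fosb, Jun and Junb encode subunits of the dimeric factor AP-1. Atf3 encodes a related factor that is induced by stress and often represses. Egr1 encodes a zinc finger factor, Myc a factor that drives growth and ribosome synthesis, and Ier2 a small nuclear protein. Zfp36 (tristetraprolin) and Dusp1 act as brakes: the first binds AU-rich elements and speeds the decay of cytokine mRNAs, and the second is a phosphatase that switches off MAP kinases.

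The sequence just upstream of the start is shown for 4 of these genes, the AP-1 subunits Jun and Fos and the brakes Zfp36 and Dusp1, so that both roles can be compared. Of these, Jun and Zfp36 varied together between livers of a group, as described further on. RefSeq promoters on GRCm38.p6 were matched for 7 of the 10 genes (Fos, Fosb, Jun, Junb, Atf3, Zfp36 and Dusp1). Bases -200 to -31 relative to the RefSeq start are printed 5′ to 3′ in the direction of the gene, and capitals mark the motifs that were searched on both strands.
Jun, chr4:95052253-95052422, minus strand: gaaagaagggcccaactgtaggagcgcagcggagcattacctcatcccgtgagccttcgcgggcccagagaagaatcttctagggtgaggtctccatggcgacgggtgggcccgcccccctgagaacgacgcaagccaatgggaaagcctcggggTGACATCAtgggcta
Zfp36, chr7:28379259-28379428, minus strand: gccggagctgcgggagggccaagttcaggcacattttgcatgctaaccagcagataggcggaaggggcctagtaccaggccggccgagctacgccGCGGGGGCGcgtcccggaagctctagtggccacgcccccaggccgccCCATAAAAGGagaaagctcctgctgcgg
Dusp1, chr17:26508503-26508672, minus strand: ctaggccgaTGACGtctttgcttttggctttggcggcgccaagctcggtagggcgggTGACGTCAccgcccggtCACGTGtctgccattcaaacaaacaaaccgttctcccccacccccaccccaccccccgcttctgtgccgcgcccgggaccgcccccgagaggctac
Fos, chr12:85473690-85473859, plus strand: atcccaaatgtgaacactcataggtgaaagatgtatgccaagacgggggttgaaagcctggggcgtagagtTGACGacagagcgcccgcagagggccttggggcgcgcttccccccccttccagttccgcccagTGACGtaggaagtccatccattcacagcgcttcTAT

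The capitals in Jun are TGACATCA at -45 to -38, a variant of the cAMP response element that 2.93% of 32851 promoters hold within 250 upstream bases. Zfp36 carries a CArG box, the recognition motif of serum response factor, at -58 to -49 (in 1.47% of promoters) and the EGR motif GCGGGGGCG at -105 to -97 (in 2.57%). In Dusp1 a full cAMP response element, TGACGTCA, lies at -143 to -136 (in 1.55% of promoters) and an E-box, CACGTG, at -126 to -121 (in 6.02%). The full element contains the shorter site TGACG, which 17.8% of promoters hold and which stands once more in Dusp1 and at 2 places in Fos. Fos also has TATAAA at -33 to -28 (in 12.4% of promoters), of which the first letters fall inside the printed stretch. The AP-1 motif TGANTCA, held by 6.75% of promoters, was not found in the 250 bases of these 4 genes. A match is a string of letters, not a measured binding site.

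Per kilobase of the canonical transcript (GENCODE vM39, GRCm39), the members spanned a wide range of levels. The brakes were the most abundant, with a median over the 19 libraries of 44.6 CPM per kilobase for Dusp1 and 44.4 for Zfp36. Junb (19.7), Jun (19.1) and Ier2 (11.4) followed. Egr1 (2.90), Myc (1.503), Atf3 (0.722) and Fos (0.665) were low, and Fosb (0.0439) was close to absent. Dusp1 and Zfp36, and likewise Junb and Jun, are neighbours in this order whose library ranges overlapped widely. Depth was 10398820 to 15456729 counts per library, so that 1 CPM stood for 9.96 to 16.1 counts. Fos therefore rested on 8 to 91 counts and Atf3 on 3 to 118, while Zfp36 rested on 701 to 2897.

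**Figure D1:**
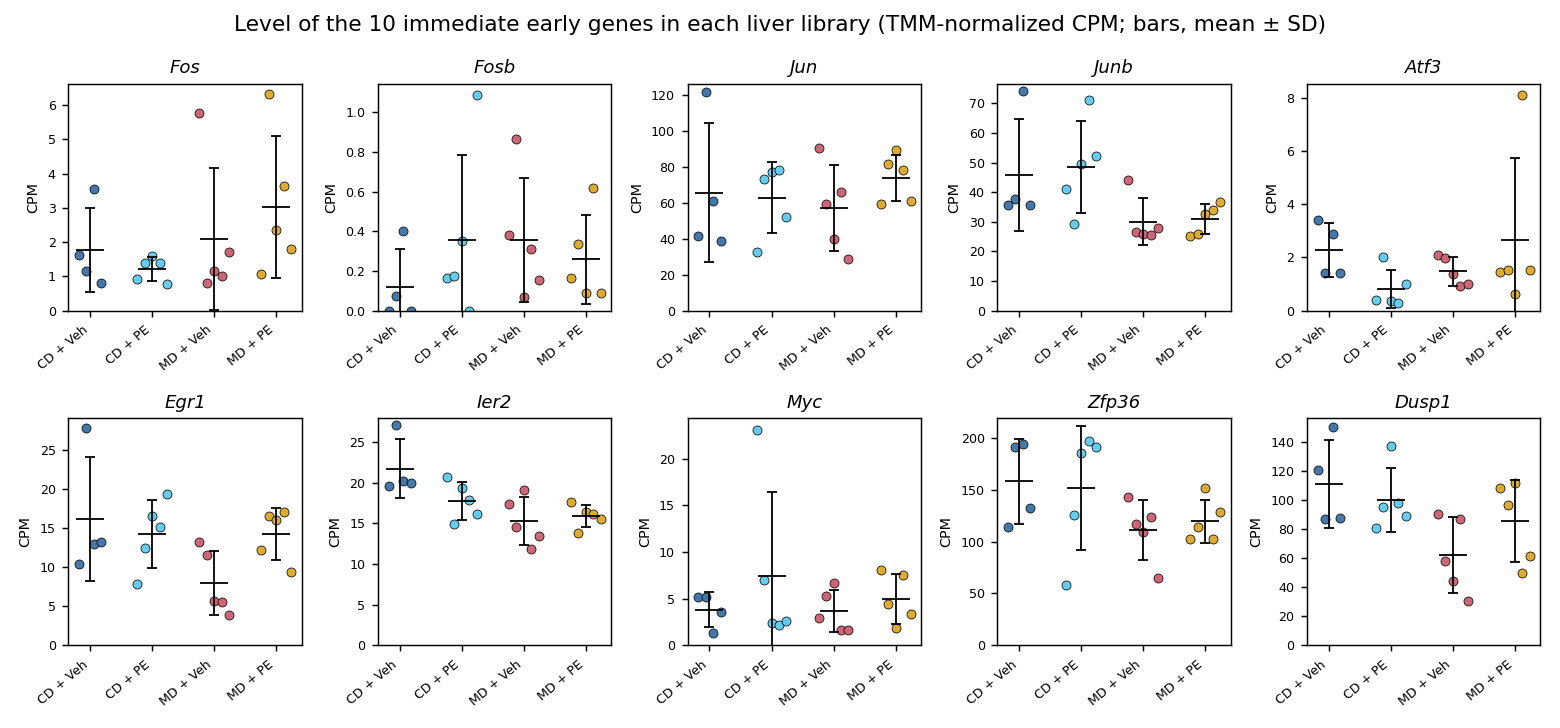
TMM-normalized CPM (vertical axes, linear from 0) of the 10 genes in the 4 groups; each point is 1 liver, and bars give mean ± SD, with lower ends below 0 not drawn. Ier2 in CD + Veh (19.6 to 27.1 CPM) lies above every MD + Veh liver (11.8 to 19.1), whereas most other panels show groups that overlap and single high livers, such as Myc at 23.1 CPM in CD + PE.

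Ier2 was the only member called in any comparison, where a call needs both an adjusted p under 0.05 and a change of 0.38 or more on the log2 scale in either direction (edgeR's quasi-likelihood test with Benjamini-Hochberg adjustment over all 13597 genes). It lies on chr8:85387960-85389483 (GRCm39, minus strand) as a single exon. Its CPM were 19.6, 27.1, 20.2 and 20.004 in CD + Veh and 20.7, 14.9, 19.3, 17.9 and 16.1 in CD + PE. On the MD they were 17.4, 14.6, 19.1, 11.8 and 13.4 with vehicle and 17.6, 13.8, 16.3, 16.2 and 15.5 with PE. Every CD + Veh liver stood above every MD liver of either treatment, by a small margin. The mean was 21.7 ± 3.62 CPM (SD, n = 4) in CD + Veh, 15.3 ± 2.94 (n = 5) in MD + Veh and 15.9 ± 1.40 (n = 5) in MD + PE. Against CD + Veh, Ier2 fell by 0.51 on the log2 scale in MD + Veh (SE 0.13, edgeR adjusted p = 0.0153) and by 0.45 in MD + PE (SE 0.13, edgeR adjusted p = 0.0228). Both comparisons use the same 4 CD + Veh livers.

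Without the CD + Veh liver of 27.1 CPM, Ier2 was called in neither comparison (log2 fold change -0.38, edgeR adjusted p = 0.0692, in MD + Veh, and -0.33, edgeR adjusted p = 0.103, in MD + PE). The call in MD + PE was also lost without MD + PE replicate 2, whose library carries intestinal transcripts, and with the covariates described with the diet comparison (-0.53, edgeR adjusted p = 0.112, with the clock score, and -0.02, edgeR adjusted p = 0.965, with the division of library numbers).

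Control diet against MD, both with vehicle, was the comparison in which the median log2 fold change of the members lay farthest from 0, although single members differed more elsewhere (Atf3 by 1.70 and Fos by 1.31 in MD + PE against CD + PE). Of the 9 tested members 1 was called, Ier2, where 10.4% of all genes were called and 4.74% were called higher and 5.63% lower. In all, 8 of the 9 log2 fold changes were negative, with a median of -0.51 beside -0.004 over all genes tested. An unadjusted p below 0.05 was found for 4 of them: Ier2, Egr1, Dusp1 and Junb. Here and below, no share of all genes with such a p is given, so these counts cannot be set against a background. Only Ier2 had ranges that did not overlap, 1 of 9, while 16.2% of all genes had none.

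Egr1 had the largest of these differences. It stood at 10.4, 27.9, 13.0 and 13.3 CPM in CD + Veh and at 13.2, 11.5, 5.73, 5.49 and 3.94 CPM in MD + Veh. Below every CD + Veh liver lay 3 of the 5 MD + Veh livers, and the other two were within the CD + Veh range. The log2 fold change was -1.0 (SE 0.34, 95% interval -1.71 to -0.29) at an edgeR adjusted p of 0.0554, and DESeq2 gave an adjusted p of 0.0281. Egr1 was called in 4 of 19 fits that left out 1 library (CD + Veh replicate 1, MD + Veh replicates 1 and 2, CD + PE replicate 1).

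Dusp1, the phosphatase, showed 120.5, 86.9, 150.1 and 87.3 CPM in CD + Veh against 90.1, 57.8, 44.3, 86.8 and 30.8 in MD + Veh. Its MD + Veh livers split into 2 near the lower CD + Veh livers and 3 well short of them. Its log2 fold change was -0.84 (SE 0.29, 95% interval -1.44 to -0.24), with an adjusted p of 0.0560 by edgeR and 0.0257 by DESeq2, and it was called in 3 of 19 fits that left out 1 library (MD + Veh replicates 1 and 4, MD + PE replicate 4). Junb stood at 35.6, 37.7, 74.1 and 35.8 CPM in CD + Veh and at 44.1, 26.6, 26.0, 25.7 and 27.9 in MD + Veh. Of the 5 MD + Veh livers, 4 lay close together below every CD + Veh liver, and replicate 1 was above 3 of the 4 CD + Veh livers. The Junb log2 fold change was -0.61 (SE 0.24, edgeR adjusted p = 0.108).

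The MD + Veh liver that stood apart for Junb is the one whose library holds skeletal muscle transcripts. The 7 muscle markers summed to 2763 CPM there, to 367 in CD + PE replicate 1 and to 174 and 114 in MD + Veh replicates 2 and 3, and to at most 31.9 in the other libraries. Without MD + Veh replicate 1, 4 members were called lower in MD + Veh: Egr1 (log2 fold change -1.24, edgeR adjusted p = 0.0235), Dusp1 (-1.0, 0.0322), Ier2 (-0.54, 0.0159) and Junb (-0.77, 0.0436). The count was also 4 with the library of intestinal transcripts left out as well. No share of all genes called is given for these fits, so the 4 cannot be read as particular to the members. Fos turned from 0.23 with all libraries to -0.60 without MD + Veh replicate 1. Other omissions brought the values nearer to 0: Egr1 was -0.61 without CD + Veh replicate 2, Junb -0.27 without CD + Veh replicate 3 and Dusp1 -0.66 without MD + Veh replicate 5. Junb was called in 1 of 19 fits that left out 1 library.

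The remaining members did not pass the test in this comparison. Zfp36 had 114, 191, 194 and 132 CPM in CD + Veh and 143, 117, 109.6, 123 and 64.6 in MD + Veh, which overlap (log2 fold change -0.50, edgeR adjusted p = 0.242). Jun (-0.20, edgeR adjusted p = 0.739), Atf3 (-0.62, 0.537) and Myc (-0.05, 0.968) had intervals that reached beyond 0 on both sides by at least 0.50.

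Other measurements moved with the diet in the same livers. The hepatocyte markers summed to 76010 to 92052 CPM in CD + Veh and to 52086 to 66812 in MD + Veh, the Kupffer cell markers to 96.05 to 176 and 206 to 303, and the stellate cell markers to 149.7 to 191.6 and 192.5 to 395, each without overlap. For the stellate cell markers the gap was narrow (191.6 against 192.5). The 395 CPM was that of MD + Veh replicate 1, the library with muscle transcripts, and the other MD + Veh livers reached 248. That list includes Des, which had a median of 4.63 CPM and a highest value of 155 over the 19 libraries. The part of these markers in the lower levels was not tested. The clock score, the mean log2 CPM of Bmal1, Clock, Npas2 and Cry1 minus that of 8 genes of the opposite phase such as Dbp and Per2, was -4.57 to -3.48 in CD + Veh and -2.44 to -0.26 in MD + Veh, with no overlap. With the score as a covariate no member was called, and the log2 fold change was -0.59 for Ier2 (edgeR adjusted p = 0.139), -1.25 for Egr1 (0.243), -1.23 for Dusp1 (0.136) and -0.14 for Junb (0.889). With the score the SE was 0.21 for Ier2, 0.54 for Egr1, 0.43 for Dusp1 and 0.35 for Junb. Without it the SE was 0.13, 0.34, 0.29 and 0.24. The score of every CD + Veh liver lay below that of every other liver. Fits with the score therefore separate the clock poorly from any difference from CD + Veh. A call lost with the score can go with a log2 fold change that is no smaller. Libraries were numbered by treatment and diet, with CD + Veh as 39 to 42 and MD + Veh as 43 to 47, and earlier results of these data placed a division between numbers 45 and 46. With that division as a covariate no member was called either (Ier2 -0.35, edgeR adjusted p = 0.0824). Only MD + Veh had libraries on both sides of it, replicates 1 to 3 before and 4 and 5 after. The coefficient of the division came from those livers alone. Their muscle markers summed to 2763, 174 and 114 CPM before it and to 13.2 and 1.85 CPM after it. All CD + Veh libraries lay before it and all PE libraries after it. Fits with it therefore cannot tell PE apart from the division within the control diet. The part of the clock and of library order in the differences between MD + Veh and CD + Veh was not tested.

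PE on the control diet left the members without a call. None of 9 was called by edgeR or by DESeq2, where edgeR called 2.92% of all genes, 1.22% higher and 1.7% lower. Atf3 and Ier2, 2 of the 9, had an unadjusted p below 0.05, with no share of all genes to set beside them. The median log2 fold change of the members was -0.15, beside 0.006 over all genes. No member had ranges without overlap, compared with 7.83% of all genes. The clock score was -3.15 to 0.32 in CD + PE, all above CD + Veh, and with the score as a covariate no member was called.

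Atf3 differed most. Its CPM were 3.42, 1.43, 2.89 and 1.41 in CD + Veh and 0.415, 2.02, 0.353, 0.301 and 0.988 in CD + PE, where the lowest of these values stands for 3 counts. Of the 5 PE livers 4 were below every vehicle liver, and replicate 2 lay between them. The log2 fold change was -1.48 (SE 0.65, 95% interval -2.84 to -0.11, edgeR adjusted p = 0.237), and it was -2.15 (edgeR adjusted p = 0.0929) without CD + PE replicate 2. The Kupffer cell markers summed to 705 CPM in that replicate and to 80.9 to 123 CPM in the other 4 CD + PE libraries, and their part in its Atf3 level was not tested. For Ier2 the log2 fold change was -0.29 (95% interval -0.57 to -0.007, edgeR adjusted p = 0.270).

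Myc had the largest positive value, 0.98 (SE 0.66, edgeR adjusted p = 0.487), and it rested on 1 liver. The CPM were 5.16, 5.23, 1.27 and 3.57 in CD + Veh and 23.1, 7.02, 2.38, 2.21 and 2.57 in CD + PE. Of the PE livers 3 were below all but 1 of the vehicle livers, and without CD + PE replicate 1 the log2 fold change was -0.08. That same library had the lowest Zfp36 of all 19 (58.2 CPM, against 125 to 197 in the other 4 of its group), so it was at opposite ends for these 2 genes. It also held 367 CPM of muscle markers, whose part in either value was not tested. For Jun (-0.07), Junb (0.08), Zfp36 (-0.06), Dusp1 (-0.15) and Egr1 (-0.18) the 95% intervals reached down to -0.88 and up to 0.64.

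PE on MD gave no call among the 9 members by edgeR or DESeq2 either. The background was 1.08% of all genes, 0.147% higher and 0.934% lower. All 9 log2 fold changes were positive, from 0.04 for Junb to 0.85 for Atf3, with a median of 0.45 beside -0.01 over all genes. This comparison and that of MD + Veh with CD + Veh share the 5 MD + Veh livers. No member had ranges without overlap, compared with 3.57% of all genes.

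Egr1 alone had an unadjusted p below 0.05 (0.0208). In MD + PE it stood at 12.3, 16.5, 16.1, 17.03 and 9.34 CPM, a mean of 14.2 ± 3.32 (SD, n = 5), beside 7.99 ± 4.12 (n = 5) in MD + Veh and 16.1 ± 7.91 (n = 4) in CD + Veh. Of the MD + PE livers 3 were above every MD + Veh liver. The log2 fold change was 0.83 (SE 0.33, 95% interval 0.14 to 1.51, edgeR adjusted p = 0.218). Dusp1 had 108, 96.4, 112, 49.7 and 61.4 CPM in MD + PE (log2 fold change 0.46, edgeR adjusted p = 0.445). The 3 highest of these livers exceeded every MD + Veh liver and the other two lay inside the MD + Veh range.

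Fos and Atf3 varied widely between livers of the MD groups. Fos was at 1.06, 6.32, 2.35, 3.64 and 1.80 CPM in MD + PE and at 5.77, 0.805, 1.16, 1.01 and 1.70 in MD + Veh. Its 2 highest values of all 19 libraries were those of MD + PE replicate 2 and MD + Veh replicate 1, the libraries with intestinal and with muscle transcripts. The 6 intestinal markers, of which 2 or 3 were at 0 in each of the other libraries, were all present in MD + PE replicate 2, with a sum of 244 CPM beside 52.4 to 131 elsewhere. Without both libraries the Fos log2 fold change was 0.94 (edgeR adjusted p = 0.420), beside 0.53 (0.693) with them. Atf3 was at 1.46, 1.52, 0.609, 8.10 and 1.53 CPM in MD + PE, so that 1 liver was over 5 times any other of its group. Without it the Atf3 log2 fold change was -0.20. That liver, MD + PE replicate 4, had the lowest sum of hepatocyte markers of all 19 (49154 CPM) and duct epithelium markers of 106.8 CPM. The duct markers summed to 36.7, 48.9 and 43.9 CPM in MD + PE replicates 1, 3 and 5. In replicate 2, the library of intestinal transcripts, they summed to 149 CPM. The part of these markers in the Atf3 level was not tested.

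**Figure D2:**
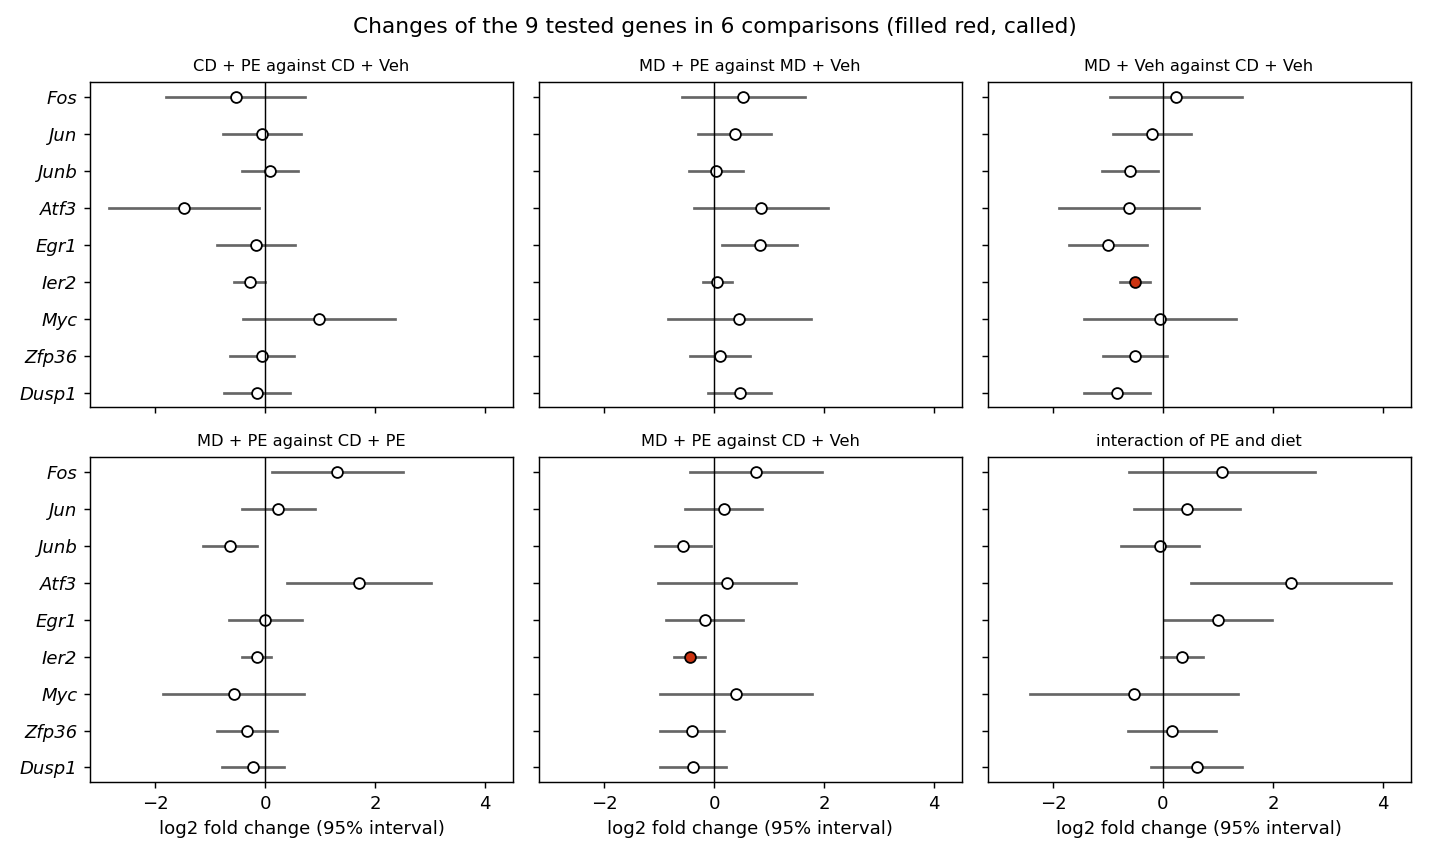
Log2 fold change (horizontal axes) of the 9 tested genes in the 5 comparisons of groups and in the interaction; lines are 95% intervals, and red circles mark calls. Only Ier2 is called, at -0.51 in MD + Veh and -0.45 in MD + PE, both against CD + Veh.

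With PE in both arms, MD against CD again called none of 9 members by either tool, where 4.61% of all genes were called, 1.69% higher and 2.92% lower. An unadjusted p below 0.05 was found for Junb, Fos and Atf3. Junb stood at 25.2, 25.9, 32.5, 34.1 and 36.5 CPM in MD + PE beside 40.9, 29.1, 49.4, 71.1 and 52.1 in CD + PE (log2 fold change -0.65, SE 0.23, edgeR adjusted p = 0.102). Only 1 CD + PE liver, replicate 2, fell within the MD + PE range. Fos had a log2 fold change of 1.31 (SE 0.57, edgeR adjusted p = 0.182), with CD + PE at 0.913, 1.40, 1.59, 1.41 and 0.790 CPM. Atf3 had 1.70 (SE 0.63, edgeR adjusted p = 0.111). Without CD + PE replicate 2, the liver of high Kupffer cell markers, Atf3 (2.38, edgeR adjusted p = 0.0295) and Junb (-0.79, 0.0304) were called. No share of all genes called is given for that fit, so these calls cannot be set against a background. Other omissions brought the values nearer to 0. Atf3 was 0.65 without MD + PE replicate 4, the liver of 8.10 CPM. Fos was 0.86 without MD + PE replicate 2, and Junb was -0.47 without CD + PE replicate 4. Ier2, called against CD + Veh, had -0.16 here (95% interval -0.43 to 0.11). No member had ranges without overlap, where 6.18% of all genes did.

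MD + PE against CD + Veh changes diet and treatment at once. Among the 9 members 1 was called, Ier2 as described, where 14.6% of all genes were called, 6.02% higher and 8.55% lower. It was also the 1 member of 9 without overlap, where 18.8% of all genes had none. Junb (-0.57, edgeR adjusted p = 0.110) had an unadjusted p below 0.05 as well. Egr1 (-0.18), Dusp1 (-0.38) and Zfp36 (-0.40) had 95% intervals that included 0.

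The interaction asks whether PE acted differently on the 2 diets. No member was called by edgeR or DESeq2, and only 1 of 13597 genes was (0.00735%). Atf3 (2.33, SE 0.87, unadjusted p = 0.0152 and adjusted p = 0.427 by edgeR) and Egr1 (1.0, SE 0.47, unadjusted p = 0.0461 and adjusted p = 0.558 by edgeR) had an unadjusted p below 0.05. The Atf3 value was 1.26 without MD + PE replicate 4 and 3.00 without CD + PE replicate 2. A difference between diets in the response of the members to PE was thus not detectable with these livers.

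Fosb had 0 to 14 counts per library. On the control diet it was at 0, 0.0716, 0.403 and 0 CPM with vehicle and at 0.166, 0.175, 0.353, 0 and 1.09 with PE. On MD it was at 0.38, 0.867, 0.0682, 0.310 and 0.154 CPM with vehicle and at 0.163, 0.337, 0.0869, 0.618 and 0.0898 with PE. All groups overlapped. At this depth the limit that a count of 0 allows, 3 counts, was 0.187 CPM in CD + Veh replicate 1 and 0.301 CPM in CD + PE replicate 4. Tested without the filter, Fosb had edgeR adjusted p-values of 0.450 to 0.932.

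Spread between livers of a group was large for most members. The SD of log2 CPM within groups was 1.05 for Myc, 0.90 for Atf3, 0.84 for Fos, 0.57 for Jun and for Egr1, 0.49 for Zfp36 and for Dusp1, 0.40 for Junb and 0.21 for Ier2. The median of these 9 was 0.57, beside 0.22 over all genes tested. Ier2 was the least variable, with 46.97% of the genes tested below it, while 97.8% were below Myc. The ratio of highest to lowest library was 2.29 for Ier2 and 26.9 for Atf3.

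Some livers were high or low for several members at once. CD + Veh replicate 2 was the highest of all 19 for Jun (122 CPM beside 41.4, 61.1 and 38.7 in the others of its group), Egr1 and Ier2. CD + Veh replicate 3 was the highest for Junb and Dusp1 and the lowest for Myc. MD + Veh replicate 5 was the lowest for Jun (28.8 CPM, beside 90.4, 59.7, 39.96 and 66.3), Egr1 and Dusp1, and among the lowest 3 for 6 members. The mean z score of the 9 members was 0.41 ± 0.45 (SD) with vehicle and 0.08 ± 0.27 with PE on the control diet, and -0.50 ± 0.68 with vehicle and 0.09 ± 0.23 with PE on MD. MD + Veh ran from -1.36 to 0.52 and so covered the whole range of both PE groups.

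**Figure D3:**
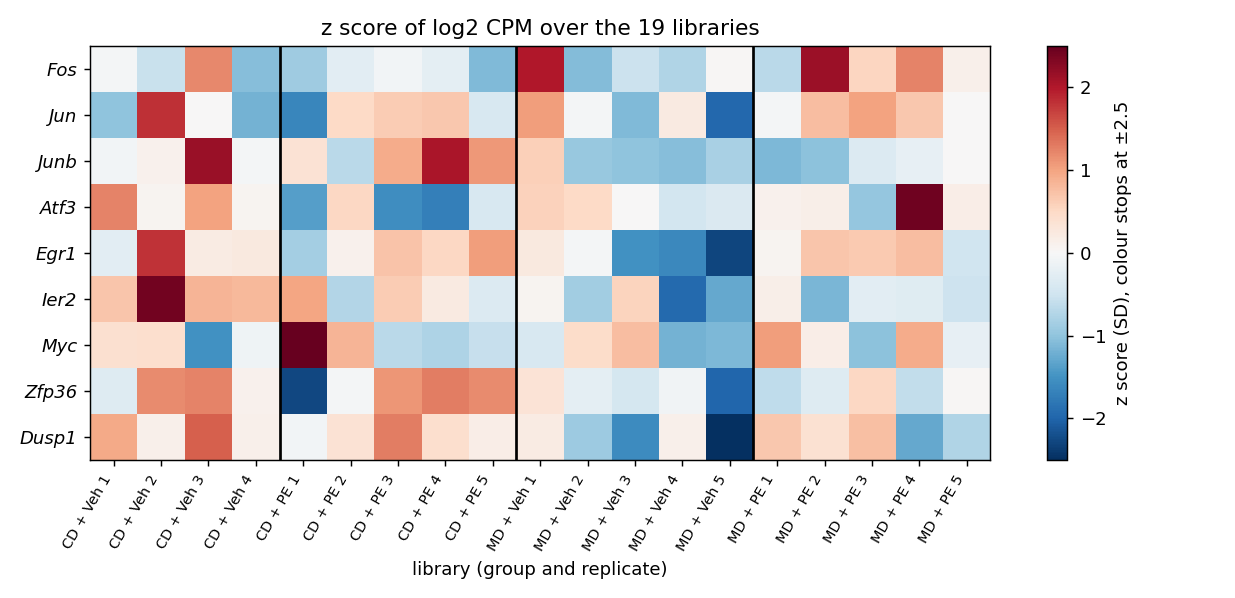
z score of log2 CPM (colour) for 9 genes (rows) in 19 livers (columns, by group and replicate), where 0 is the gene's mean over all livers. MD + Veh replicate 5 is blue for most rows, CD + Veh replicates 2 and 3 are red for several, and CD + PE replicate 1 is high for Myc and low for Zfp36.

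Within groups, 3 members varied together. After subtraction of the group mean, log2 CPM over the 19 livers gave a Pearson r of 0.80 for Jun with Egr1 (Spearman rho 0.71), 0.75 for Jun with Zfp36 (rho 0.74) and 0.67 for Egr1 with Zfp36 (rho 0.56). Without the 2 livers farthest from the median in 1 gene of each pair (Jun, Jun and Egr1), these r were 0.70, 0.59 and 0.66. Livers that were extreme only in the other gene of a pair were kept. Dusp1 had r of 0.48 with Zfp36 and 0.47 with Jun, and 0.32 and 0.28 without the 2 livers farthest in Zfp36 and in Jun. Myc went the other way, with -0.65 against Zfp36 and -0.55 against Junb. These were -0.40 and -0.38 without the 2 livers farthest in Myc and in Junb. Fos had 0.49 with Junb and 0.36 with Jun, and Ier2 had at most 0.28 with every member except Myc (0.43). Of the 36 pairs 24 were positive, 3 exceeded 0.5, and the median was 0.21. The values of a library share its depth and its tissue piece, and these correlations are a description.

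**Figure D4:**
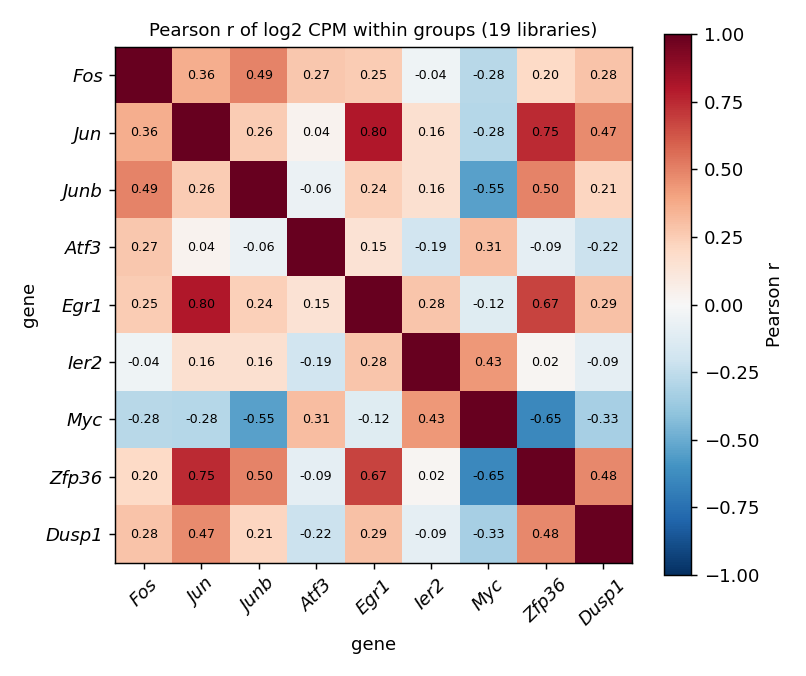
Pearson r (colour and numbers) between members in log2 CPM after subtraction of group means, over 19 livers. Jun, Egr1 and Zfp36 form the darkest red block (0.67 to 0.80), and Myc is blue against Zfp36 (-0.65) and Junb (-0.55).

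The genes most like the members were looked for by the r of their log2 CPM with the mean z score of the 9. Over all 19 livers these were Cpeb3 (r = 0.77), Cdc25a (0.77), Ihh (0.75), Nfkbil1 (0.72) and Thsd4 (0.72). After subtraction of group means they were Tgfb3 (0.85), Jund (0.85), Myh7 (0.83), Tuba8 (0.83) and Ldhb (0.82), of which Myh7, a muscle myosin, ran from 0 to 149.8 CPM. Without MD + Veh replicate 1 they were Jund (0.81), Orai3 (0.76), Eps8l2 (0.76), Tesk1 (0.76) and Btg1 (0.76) over 18 livers. Jund, the AP-1 subunit that is expressed at rest, and Btg1, an antiproliferative gene, are themselves on the list of other immediate early genes. Jund stood at 67.8 to 114.0 CPM.

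Beyond the 10 genes, 46 other immediate early genes were followed, of which 40 were tested. With PE on the control diet 1 of them (2.5%, beside 2.92% of all genes), Klf10, fell and none rose, while 21 of the 40 log2 fold changes were positive. Klf10, a Krüppel-like factor induced by TGF-β, was at 88.1, 25.3, 59.9 and 52.5 CPM in CD + Veh and at 23.7, 15.96, 19.2, 29.3 and 26.2 in CD + PE (log2 fold change -1.31, SE 0.32, edgeR adjusted p = 0.0252). Of the 4 vehicle livers 3 were above every PE liver. That call was lost in 5 of the 19 fits without 1 library (without CD + Veh replicates 1, 3 and 4 and CD + PE replicates 2 and 3, with adjusted p up to 0.12), with the clock score as a covariate (-0.67, edgeR adjusted p = 0.301) and with the division of library numbers (-2.24, edgeR adjusted p = 0.0649). PE on MD called none of the 40 (beside 1.08% of all genes), with 2 at an unadjusted p below 0.05 and none called by DESeq2.

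MD with vehicle changed 4 of the 40, 2 higher and 2 lower, which is 10% and close to the 10.4% of all genes. Klf10 fell by 1.98 on the log2 scale (SE 0.32, edgeR adjusted p = 0.000389), to 12.1, 11.1, 8.39, 17.5 and 22.9 CPM, below all CD + Veh livers. Csrnp1, a nuclear protein induced by axin, had 14.0, 7.74, 12.1 and 9.70 CPM in CD + Veh and 6.46, 5.82, 6.55, 5.57 and 7.34 in MD + Veh (-0.78, SE 0.16, edgeR adjusted p = 0.00263), again with no overlap. It was also the 1 gene of the 40 called between the diets under PE (-0.71, edgeR adjusted p = 0.00787), which is 2.5% beside 4.61% of all genes. Both were called in all 19 fits that left out 1 library, while with the clock score neither was called in MD + Veh (Klf10 -1.09, adjusted p = 0.117, and Csrnp1 -0.73, adjusted p = 0.105, by edgeR).

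The 2 higher genes were Nr4a2, an orphan nuclear receptor, and Dusp8, a phosphatase of stress-activated kinases. Nr4a2 rose from 0.495 ± 0.252 CPM (SD, n = 4) to 1.33 ± 0.442 (n = 5), a log2 fold change of 1.40 (SE 0.36, edgeR adjusted p = 0.0144). Dusp8 stood at 0.677 ± 0.204 CPM in CD + Veh and at 5.01, 1.86, 1.91, 1.70 and 1.85 in MD + Veh (1.86, edgeR adjusted p = 0.0226), with the library of muscle transcripts highest, and it was not called without that library or without CD + Veh replicate 1 or 4. Nr4a2 was called in all 19 fits without 1 library, but not with the clock score (1.77, edgeR adjusted p = 0.0705) or the division (1.15, edgeR adjusted p = 0.0590). Dusp8 was not called with the clock score either (0.98, edgeR adjusted p = 0.543). In MD + PE against CD + Veh 4 of 40 (10%, beside 14.6% of all genes) were called: Klf10 (-1.54) and Csrnp1 (-0.72) lower, and Nr4a2 (1.61) and Tnfaip3 (0.90) higher. Tnfaip3, an inhibitor of NF-κB signalling, was not called without CD + Veh replicate 2, 3 or 4 or MD + PE replicate 4. With the clock score the calls of Klf10 (-0.68, edgeR adjusted p = 0.264), Csrnp1 (-0.67, 0.0796) and Tnfaip3 (0.58, 0.448) were lost, while the call of Nr4a2 was held (1.98, 0.0188). With the division those of Csrnp1 (-0.76, edgeR adjusted p = 0.111), Nr4a2 (1.04, 0.281) and Tnfaip3 (1.58, 0.0538) were lost.

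**Figure D5:**
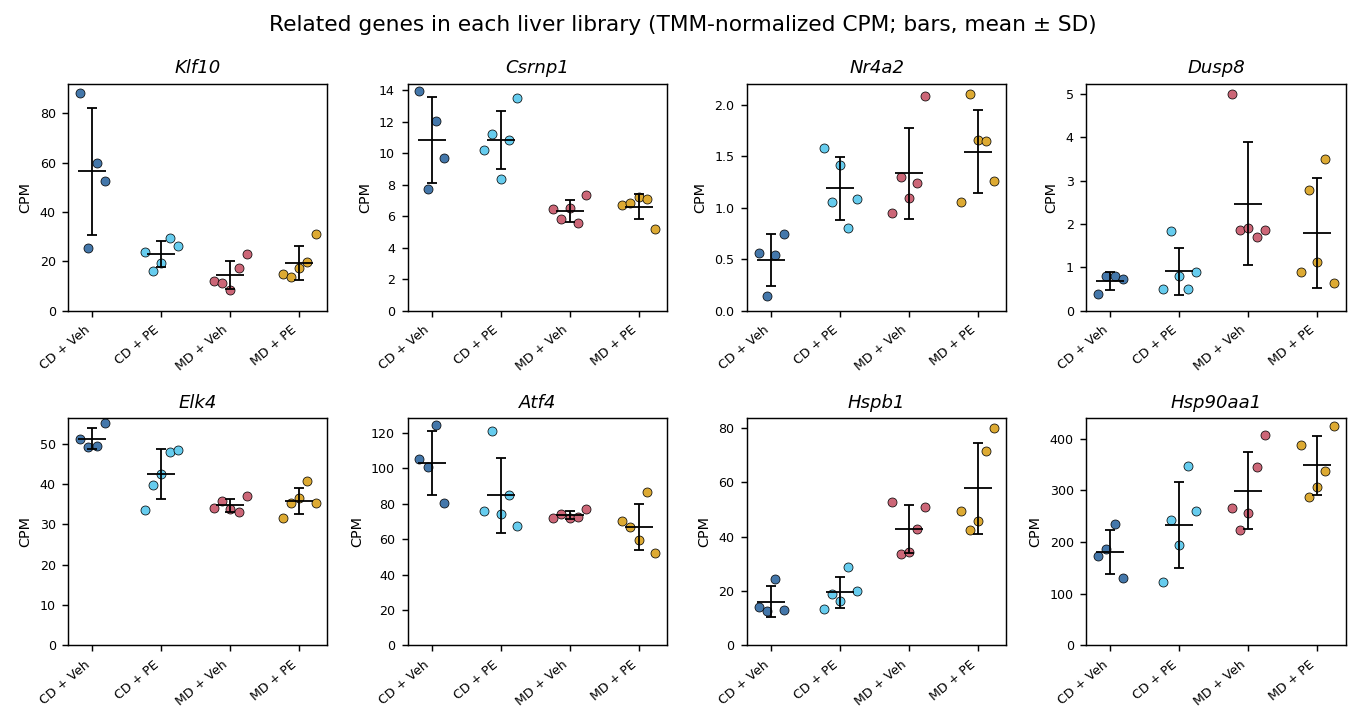
TMM-normalized CPM (vertical axes from 0) of 8 related genes in the 4 groups; each point is 1 liver, and bars are mean ± SD. Klf10, Csrnp1, Elk4 and Atf4 are lower, and Nr4a2, Dusp8 and Hspb1 higher, in every MD + Veh liver than in every CD + Veh liver.

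Partners and upstream genes showed few calls. Of 11 tested dimer partners of AP-1 and Myc, PE called none on either diet. Over all genes PE called 2.92% on the control diet and 1.08% on MD. MD with vehicle called 1 of the 11 (9.09%, beside 10.4% of all genes): Atf4, the effector of the integrated stress response (-0.49, edgeR adjusted p = 0.0437). That call was held in 7 of 19 fits without 1 library and lost with the division (-0.50, edgeR adjusted p = 0.0741). With the clock score it was held (-0.91, edgeR adjusted p = 0.00867). Of 24 kinases and factors upstream of these promoters, PE again called none, beside the same shares of all genes. An unadjusted p below 0.05 was found for 3 of the 24 on the control diet and for 4 on MD, again without a share of all genes. MD with vehicle changed 3 of the 24 (12.5%, again beside 10.4%): Elk4, a partner of serum response factor, fell from 51.3 to 34.7 CPM in the mean (-0.56, SE 0.09, edgeR adjusted p = 0.000418), Map3k5 was lower (-0.47, edgeR adjusted p = 0.0485) and Mrtfb, a coactivator of the same factor, was higher (0.50, edgeR adjusted p = 0.0267). Elk4 was called in all 19 fits without 1 library but not with the clock score (-0.39, edgeR adjusted p = 0.110). Mrtfb was called in 15 of those fits (not without CD + Veh replicate 2 or 4 or MD + Veh replicate 2 or 4) and in neither fit with a covariate (edgeR adjusted p = 0.0955 with the clock score and 0.0659 with the division). Map3k5 was called in 4 of them, and stood at -0.04 (edgeR adjusted p = 0.951) with the clock score and at -0.49 (0.0797) with the division. In MD + PE against CD + Veh 4 of 24 (16.7%, beside 14.6% of all genes) were called: Elk4 (-0.51) and the receptor Egfr (-1.64) lower, Elk3 (0.67) and Mrtfb (0.62) higher, and Atf4 (-0.62) was called among the dimer partners. The Egfr call was lost in 7 of the 19 fits without 1 library (CD + Veh replicates 1 to 3 and MD + PE replicates 1 to 4) and with the clock score (-1.09, edgeR adjusted p = 0.336). The clock score also ended the call of Elk4 (-0.35, edgeR adjusted p = 0.0851), and the division those of Mrtfb (0.53, 0.211) and Atf4 (-0.66, 0.147). Mrtfb (0.77, edgeR adjusted p = 0.0223) and Atf4 (-1.03, 0.00116) were called with the clock score. Elk3 was called in all 19 fits without 1 library and with either covariate. No gene of these 2 lists was called between the diets under PE, where 4.61% of all genes were.

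Heat shock genes, which mark protein damage, were compared because they too rise under acute stress. PE called none of 10 on either diet, where 2.92% of all genes were called on the control diet and 1.08% on MD. On MD with vehicle Hspb1, a small heat shock protein, rose from 14.2, 12.5, 24.4 and 12.9 CPM to 52.6, 33.7, 34.3, 42.7 and 50.8 (1.42, SE 0.25, edgeR adjusted p = 0.000788), with no overlap. It was called in all 19 fits without 1 library and with the clock score (1.76, edgeR adjusted p = 0.00742), and also between the diets under PE (1.57, edgeR adjusted p = 0.000281). Hsp90aa1 was called too (0.73, edgeR adjusted p = 0.0469), in 7 of 19 fits without 1 library, but not with the clock score (0.97, edgeR adjusted p = 0.110) or the division (0.46, edgeR adjusted p = 0.223). These are 2 of 10, or 20%, beside 10.4% of all genes. Both were called in MD + PE against CD + Veh (1.85 and 0.94), where 14.6% of all genes were, and there the Hsp90aa1 call was lost with the division (0.35, edgeR adjusted p = 0.611). With the clock score the Hsp90aa1 call was held there (1.19, edgeR adjusted p = 0.0245). The median of the 10 was 0.66 in MD + Veh against CD + Veh.

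Of 10 glucocorticoid-responsive genes, compared because handling raises corticosterone, PE called none on either diet. Over all genes PE called 2.92% on the control diet and 1.08% on MD. On each diet 2 of the 10 had an unadjusted p below 0.05, again without a share of all genes. MD with vehicle called 2 of the 10 (20%, beside 10.4% of all genes), Cdkn1a (2.13, edgeR adjusted p = 0.0320) and Pdk4 (1.98, edgeR adjusted p = 0.0366) higher. Cdkn1a, the cell cycle inhibitor p21, had 2.80, 0.931, 0.470 and 2.36 CPM in CD + Veh and 7.54, 14.0, 7.91, 4.41 and 2.32 in MD + Veh, and its call was lost in 5 of 19 fits without 1 library (CD + Veh replicates 2 to 4, MD + Veh replicates 2 and 3), without both libraries that hold muscle or intestinal transcripts, and with the clock score (0.78, edgeR adjusted p = 0.728). Pdk4, a kinase that is abundant in muscle, was at 65.2 CPM in the library of muscle transcripts and at 3.86 to 18.0 in the other 4 MD + Veh livers, and was not called without it, without MD + Veh replicate 2 or without any 1 of the CD + Veh livers, nor with the clock score (1.24, edgeR adjusted p = 0.569). The median of the 10 was -0.08. In MD + PE against CD + Veh Cdkn1a (2.76) and Klf9 (0.70) were called higher (20%, beside 14.6% of all genes). The first call was lost with the clock score (1.61, edgeR adjusted p = 0.259) and the second with the division (0.50, edgeR adjusted p = 0.325). Klf9 was called with the clock score (1.01, edgeR adjusted p = 0.0093). Between the diets under PE none was, where 4.61% of all genes were.

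The libraries otherwise carried the profile of liver, with 8 hepatocyte markers summing to 49154 to 95756 CPM. Mitochondrial transcripts made up 7.40% to 9.18% of counts in CD + Veh and 10.53% to 11.9% in CD + PE, and 9.11% to 10.95% with vehicle and 9.54% to 11.4% with PE on MD. PE libraries had lower depth (10398820 to 12757617 counts) than vehicle libraries (13406037 to 15456729) and higher library numbers (48 to 57), so PE cannot be told apart from the order of the libraries or from depth.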

How the data were processed

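Gene expression was measured by bulk RNA-seq in 19 mouse livers (CD + Veh 4, CD + PE 5, MD + Veh 5, MD + PE 5). Per the labels and the methods, reads were trimmed with fastp 0.23.4 and quantified on the GENCODE transcriptome of GRCm39 with Salmon 1.10.3, with sequence bias correction, and transcripts were summed to genes with tximport. In the deposited table the authors give estimated counts for each gene, rounded to whole numbers and not normalized. Its 19 columns were matched to samples by name, and 0 columns were unmatched. Pairs of libraries within a group had identical values in no more than 1.85% of genes (20 counts or more in the pair), so no library was counted as a copy.

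Analyses were run with edgeR 4.0.16 and DESeq2 1.42.0 under R 4.3.3. The test was edgeR's quasi-likelihood test on TMM-normalized counts, with filterByExpr by group, over all 19 libraries. Calls required a Benjamini-Hochberg adjusted p below 0.05 over 13597 genes together with a change of 0.38 or more on the log2 scale. SE was derived from the F statistic. Log2 CPM for correlations used a prior count of 2. Data simulated with known changes were used to test the edgeR step. Depth, 10398820 to 15456729 counts, limits precision, and limits from a count of 0 cover counting error only. Each library was taken as 1 mouse. The labels describe 4 randomly chosen livers, which differs from the 5 libraries of 3 groups. Same-numbered libraries correlated above 0.1 in 6 of 27 pairs (median r 0.03), and were treated as unpaired. Alternatives were RLE normalization, DESeq2, no filter, only the groups compared, the replicate block, 2 covariates and each library left out; leaving out both libraries with transcripts of other tissues was added after seeing the data. Copies that share reads could be split by the quantification.

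Named genes were all 10 members, up to 4 called genes of lowest adjusted p per related list and comparison, and the 5 genes most like the members. The members and lists were chosen with earlier results of these data known.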

Additional observations from a re-analysis of the deposited data

Results flagged for a closer look

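Of 40 combinations of member and group 7 held a highest library that stood apart from the rest of its group by Dixon's criterion. Chance meets this in about 1 of 20 groups when values are independent and normally distributed. It was applied to CPM without a log scale, and members share libraries, so that rate cannot be set against the 7 of 40. CD + Veh replicate 2 stood apart for Egr1 (27.9 CPM, next 13.3) and Ier2 (27.1 CPM, next 20.2), and CD + Veh replicate 3 for Junb (74.1 CPM, next 37.7). MD + Veh replicate 1, the library with muscle transcripts, stood apart for Fos (5.77 CPM, next 1.70) and Junb (44.1 CPM, next 27.9). In the PE groups it was CD + PE replicate 1 for Myc (23.1 CPM, next 7.02) and MD + PE replicate 4 for Atf3 (8.10 CPM, next 1.53). The source of these high values was not tested.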

How the results depend on the processing

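No member was called for PE on either diet or for the interaction under any alternative. Shares of all genes called were given for the main edgeR fit only. Counts under the alternatives therefore cannot be set against a background, and a move can reflect more or fewer calls over all genes. In MD + Veh against CD + Veh, 1 member was called under most alternatives, 3 with DESeq2 (Ier2, Egr1, Dusp1), 4 with both doubted libraries (MD + Veh replicate 1 and MD + PE replicate 2) left out, and 0 with the clock score or the division between libraries 45 and 46 as a covariate. For MD + PE against CD + Veh the count went from 1 to 0 with the clock score, with the division and without both doubted libraries. Leaving out 1 library gave 0 to 4 in the first, 0 to 1 in the second and 0 to 2 in MD + PE against CD + PE. Other immediate early genes called moved with DESeq2 to 2 for PE on CD, 4 for MD + PE against CD + PE, 10 for MD + PE against CD + Veh and 1 for the interaction, and with only the groups compared to 7 for MD + PE against CD + Veh. With the clock score they were 0 for PE on CD, 1 for MD + Veh against CD + Veh and 2 for MD + PE against CD + PE; with the division 0, 2 for MD + PE against CD + PE and 1 for the interaction; without both doubted libraries 2 for MD + PE against CD + PE. Leaving out 1 library gave 0 to 2 for PE on CD, 3 to 7 for MD + Veh against CD + Veh, 1 to 3 for MD + PE against CD + PE and 3 to 8 for MD + PE against CD + Veh.

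Changes of sign concerned log2 fold changes that were not called. The coefficient of the division, used in some of these fits, came from the MD + Veh livers alone. With the division, PE on CD gave Egr1 0.93, Fos 0.38, Ier2 0.14, Jun 0.35 and Zfp36 0.33, and MD + Veh against CD + Veh gave Myc 0.38. In the latter, Fos was -0.60 and Myc 0.0412 without both doubted libraries, and Fos was -0.15 with the clock score, under which PE on MD gave Junb -0.00377. In MD + PE against CD + Veh, Egr1 went from -0.18 to 0.93 with the division, and with the clock score Atf3 went from 0.23 to -0.89, Myc from 0.40 to -0.73 and Jun from 0.17 to -0.20. Without 1 library, PE on CD ranged from -0.77 to 0.0318 (Fos), -0.24 to 0.41 (Jun), -0.0826 to 0.41 (Junb), -0.33 to 0.22 (Egr1), -0.0814 to 1.22 (Myc), -0.18 to 0.16 (Zfp36) and -0.30 to 0.0242 (Dusp1). PE on MD ranged from -0.0318 to 0.22 (Junb), -0.0196 to 0.15 (Ier2), -0.20 to 1.1 (Atf3) and -0.0369 to 0.22 (Zfp36), and MD + Veh against CD + Veh from -0.60 to 0.81 (Fos), -0.41 to 0.28 (Jun) and -0.38 to 0.14 (Myc). The cause was not tested. Of 916 refitted log2 fold changes, 853 kept their sign and side of the threshold and 40 changed sign.

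Replicate numbers did not pair the libraries. With the replicate block, Ier2 was the 1 member called in both comparisons with CD + Veh, Jun was 0.11 for PE on CD, Myc was 0.31 for MD + Veh against CD + Veh, and 1 other immediate early gene was called for the interaction. Low counts limit Fos, Fosb and Atf3, for which only large differences were detectable.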
